A study of Mus musculus with 8 samples.

Results

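The genes described here are 10 genes of cardiac fibroblast identity and activation, *Tcf21*, *Pi16*, *Dpt*, *Thy1*, *Ddr2*, *Gsn*, *Scx*, *Meox1*, *Fap* and *Cthrc1*, found by their gene names among the 46040 genes of the count table. All 10 had reads in every library and passed the filter on low counts, as did 13542 genes in all. A second gene row carries the name *Cthrc1* (ENSMUSG00000106929) and held 0 reads in all 8 libraries, so it was left out. RNA sequencing was done on the left ventricle (LV) of 8 male C57BL/6 mice that were 5 to 7 months old and had received angiotensin II (angII) by minipump, 0.1 mg/kg/h, until day 14. Every mouse had angII, so no comparison with untreated hearts can be made. By genotype tag and library name, the 4 libraries called TK-/- tagged here come from VEGFR-1 TK-/- mice and the 4 control-tagged libraries from littermates. In VEGFR-1 TK-/- mice, VEGFR-1, the protein of *Flt1*, lacks its intracellular tyrosine kinase domain in all cells. The animals sequenced are those that survived to that day.

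The labels disagree on which group is which. For each sample, genotype tag and library name give one genotype and the title the other, and the former were followed. If the titles are right, the sign of every difference below turns around. *Flt1* itself, counted over the whole gene and so without a view of the deleted domain, had 56.9 to 84.3 normalized CPM in the control-tagged and 144 to 170 in the TK-/- tagged libraries. CPM stands for counts per 1000000 reads on genes, and normalized CPM scales each library by its TMM factor. Reads on genes ranged from 11449137 to 16239670 per library. The labels number the libraries without naming animals, so p-values measure the spread between these libraries.

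Cardiac fibroblasts form and maintain the collagen network between the muscle cells and arise largely from the epicardium, the outer layer of the heart. Under pressure overload or angII they are activated: they divide, secrete matrix and, in part, take on contractile features as myofibroblasts. Some genes mark the resting lineage and are shared by most resident fibroblasts, others are switched on with activation. Total LV RNA comes mostly from muscle cells, so that in these libraries fewer fibroblasts and less RNA per fibroblast cannot be told apart.

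The labels name LV tissue and the library names carry the word cardiomyo, and both were checked against defining markers. All 8 cardiomyocyte markers were tested, with a summed level of 62769 to 99149 normalized CPM over the 8 libraries. All 18 markers of resident fibroblasts were tested too, with a summed level of 1492 to 3583. None of the 6 adipocyte markers passed the filter, and *Adipoq* and *Plin1* had at most 2 and 0 reads in any library. *Cd3e*, the defining marker of T cells, was near the filter, with normalized CPM of 0.512 ± 0.371 (control-tagged) and 0.691 ± 0.629 (TK-/- tagged, SD, n = 4).

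All 10 fibroblast genes had a lower mean in the TK-/- tagged libraries, and none was called. The lowest log2 fold changes were those of *Thy1*, *Fap* and *Pi16*, at −0.63, −0.55 and −0.52, and those nearest to 0 were those of *Gsn* and *Dpt*, at −0.12 and −0.09. A log2 fold change below 0 was found in 50.3% of all genes tested. The median over the 10 genes was −0.37, beside −0.00119 over all genes. A gene was called when edgeR's quasi-likelihood test gave a Benjamini-Hochberg adjusted p (FDR) under 0.1 and the change was at least 1.5-fold either way, which held for 0.00738% of all genes. At an unadjusted p under 0.05, 3 of the 10 genes were lower, *Thy1*, *Fap* and *Pi16*, against 5.64% of all genes. DESeq2 called 0 of the 10, with 0.236% of all genes called, and had 3 under the unadjusted threshold. The likelihood ratio test, which the study's methods name, called 1 of the 10, *Thy1*, with 0.391% of all genes called. In *Thy1* and *Fap* the groups did not overlap, 2 of the 10 genes, where such a separation to the lower side was seen in 2.53% and to either side in 4.98% of all genes.

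**Figure D1:**
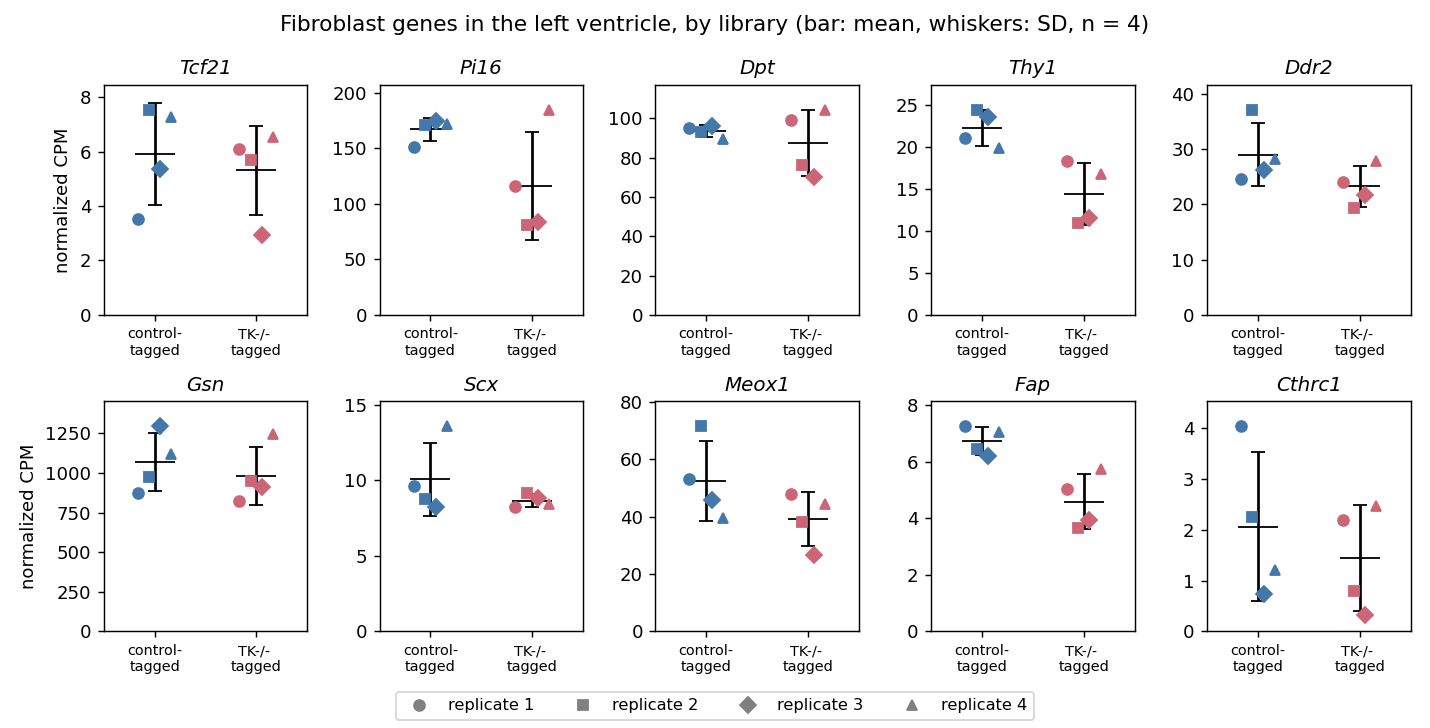
Normalized CPM (y axis, from 0) of the 10 fibroblast genes in each LV library, with control-tagged libraries in blue and TK-/- tagged libraries in red. Symbols give the replicate number, the horizontal bar the mean and the whiskers the SD of the 4 libraries of a group. The groups are apart in *Thy1* and *Fap* and overlap in the other 8 genes.

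*Tcf21* (ENSMUSG00000045680, chromosome 10, 22817281 to 22820174, minus strand, GRCm38) encodes a basic helix-loop-helix factor needed for the formation of cardiac fibroblasts from the epicardium, and it is a marker of the resident cells. Its normalized CPM was 3.52, 7.55, 5.38 and 7.28 in control-tagged replicates 1 to 4. In the TK-/- tagged replicates it was 6.09, 5.68, 2.92 and 6.54. The groups overlapped widely, with the lowest value in TK-/- tagged replicate 3 and the next in control-tagged replicate 1. The means were 5.93 ± 1.88 and 5.31 ± 1.63 (SD, n = 4). Its log2 fold change was −0.16 with a 95% interval from −0.77 to 0.46 (FDR = 0.895). It rests on 37 to 104 reads per library. Without TK-/- tagged replicate 3, the log2 fold change was 0.041, with the opposite sign, and without control-tagged replicate 1 it was −0.35.

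*Pi16* (ENSMUSG00000024011, chromosome 17, 29317680 to 29330593, plus strand) encodes peptidase inhibitor 16, a protein of quiescent fibroblasts around vessels. The control-tagged replicates 1 to 4 were at 152, 171, 174 and 172 normalized CPM. The TK-/- tagged replicates were at 116, 80.6, 83.6 and 185. In 3 of the 4 TK-/- tagged libraries *Pi16* was below all control-tagged libraries, and in replicate 4 it was above all of them. The means were 167 ± 10.5 and 116 ± 48.4 (SD, n = 4), so that the spread was wider in the TK-/- tagged group, with a coefficient of variation of 41.7% against 6.29%. The difference was −0.52 on the log2 scale (SE 0.22, FDR = 0.528 with the quasi-likelihood test of edgeR), and the exact 2-sided permutation test gave p = 0.143. Without TK-/- tagged replicate 4, the log2 fold change was −0.84, with FDR = 0.189, and the groups did not overlap, as in 696 of 13483 genes to the lower side without that library. *Pi16* shares 222 exon bases with an antisense gene of GENCODE M21, and the setting of strand in the counting is not given in the sources used here.

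*Dpt* (ENSMUSG00000026574, chromosome 1, 164796644 to 164824266, plus strand) encodes dermatopontin, a small matrix protein that binds decorin and is expressed by fibroblasts of many organs. Control-tagged replicates 1 to 4 had 95.4, 92.9, 96.1 and 89.5 normalized CPM. TK-/- tagged replicates had 99.1, 76.4, 70.3 and 104. Replicates 1 and 4 of the latter group were thus above every control-tagged library and replicates 2 and 3 below every one. The log2 fold change was −0.09 with a 95% interval from −0.37 to 0.18 (FDR = 0.852). It was −0.0041 without TK-/- tagged replicate 3 and −0.19 without TK-/- tagged replicate 4. The coefficient of variation was 3.20% in the control-tagged and 19.1% in the TK-/- tagged libraries.

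The 250 bases before the RefSeq transcription start are shown for *Tcf21*, as the gene of a factor that binds E-boxes. They are also shown for *Dpt* and *Ddr2*, a pair with a low root mean square difference of levels over the libraries, as given below. RefSeq promoters of GRCm38.p6 were matched for 5 of the 10 genes, *Dpt*, *Ddr2*, *Gsn*, *Tcf21* and *Pi16*. The sequences run from 5′ to 3′ on the strand of the gene. They lie at chr10:22820144-22820393 (minus strand) for *Tcf21*, chr1:164796413-164796662 (plus strand) for *Dpt* and chr1:170088945-170089194 (minus strand) for *Ddr2*. In each of them the RefSeq start lies inside the span that GENCODE gives the gene. Part of the *Tcf21* and *Dpt* windows and all of the *Ddr2* window thus lie within that span. Capitals mark E-boxes, the letters CANNTG, which read the same on both strands.
Tcf21: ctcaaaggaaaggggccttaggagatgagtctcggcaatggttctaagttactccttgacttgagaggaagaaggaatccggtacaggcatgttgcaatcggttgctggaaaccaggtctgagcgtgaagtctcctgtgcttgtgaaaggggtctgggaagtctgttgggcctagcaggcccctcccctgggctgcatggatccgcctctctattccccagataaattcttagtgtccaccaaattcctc
Dpt: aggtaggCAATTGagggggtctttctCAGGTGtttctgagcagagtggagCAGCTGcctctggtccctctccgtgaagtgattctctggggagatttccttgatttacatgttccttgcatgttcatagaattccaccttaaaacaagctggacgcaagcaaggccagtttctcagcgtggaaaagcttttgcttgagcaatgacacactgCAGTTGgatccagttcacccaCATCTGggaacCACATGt
Ddr2: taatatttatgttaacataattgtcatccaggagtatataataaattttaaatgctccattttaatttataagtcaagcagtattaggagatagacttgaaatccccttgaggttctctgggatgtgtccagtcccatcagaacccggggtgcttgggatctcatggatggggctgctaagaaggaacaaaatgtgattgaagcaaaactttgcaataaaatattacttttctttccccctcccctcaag

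The *Dpt* window held 6 E-boxes and the *Tcf21*, *Ddr2* and *Pi16* windows held 0. Of those in the *Dpt* window, CATCTG and CACATG, nearest to the RefSeq start, lie within the span that GENCODE gives the gene. The 3 windows of *Gsn* held 1 or 2. The whole *Pi16* window, and all *Gsn* windows but the most upstream, also lie within the GENCODE span of their gene. At least 1 E-box was found in 66.2% of all 32851 promoter windows of this length and at least 6 in 0.274%, and the *Dpt* window was singled out after its count was seen. Of the other motifs searched on both strands, TGANTCA (AP-1) and GGAATG (TEAD) were in none of the 7 windows. TATAAA (the TATA box) was matched in that of *Ddr2* alone, and there only as its reverse complement TTTATA, on the strand opposite to the gene. These motifs occurred in 6.75%, 12.6% and 12.4% of all windows. Such a match describes the letters and not binding, and binding was not measured.

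*Thy1* (ENSMUSG00000032011, chromosome 9, 44043384 to 44048579, plus strand) encodes the surface glycoprotein CD90, carried by fibroblasts and also by T cells and neurons. Its normalized CPM was 21.0, 24.5, 23.6 and 19.9 in control-tagged replicates 1 to 4. It was 18.4, 10.9, 11.5 and 16.8 in the TK-/- tagged replicates. The highest TK-/- tagged library was below the lowest control-tagged one, and replicates 2 and 3 of that group were the lowest. The means were 22.3 ± 2.14 and 14.4 ± 3.74 (SD, n = 4), so the fitted level was 35.2% lower. This log2 fold change, −0.63 (SE 0.17, FDR = 0.442, edgeR), was the only one of the 10 past the fold threshold and ranked 87 by unadjusted p among all genes. The exact 2-sided permutation test gave p = 0.0286, the smallest that 4 libraries against 4 allow. The likelihood ratio test gave FDR = 0.0951 and DESeq2 FDR = 0.115, and over all alternatives the FDR ranged from 0.0951 to 0.941, the highest without TK-/- tagged replicate 2. With each library left out in turn, it lay between −0.76 and −0.52. The 4 T cell markers tested had a summed level of 4.56 to 5.91 normalized CPM in the control-tagged and 3.75 to 8.69 in the TK-/- tagged libraries, 2 of them higher and 2 lower in the latter.

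*Ddr2* (ENSMUSG00000026674, chromosome 1, 169972307 to 170110762, minus strand) encodes a receptor tyrosine kinase that is activated by fibrillar collagen. Control-tagged replicates 1 to 4 had 24.6, 37.2, 26.2 and 28.2 normalized CPM. TK-/- tagged replicates had 24.1, 19.3, 21.6 and 27.9. Every TK-/- tagged library lay below the control-tagged mean of 29.0 and 3 of them below every control-tagged library. For *Ddr2* the log2 fold change was −0.32 (SE 0.15, FDR = 0.561), and the permutation test over all splits was exact with p = 0.114. Without control-tagged replicate 2, the highest library, it was −0.18. *Ddr2* shares 90 exon bases with an antisense gene, *3110045C21Rik*, which had 76 reads over all libraries.

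*Gsn* (ENSMUSG00000026879, chromosome 2, 35256380 to 35307892, plus strand) encodes gelsolin, which severs actin filaments and is abundant in fibroblasts but not limited to them. The control-tagged replicates 1 to 4 were at 876, 974, 1297 and 1121 normalized CPM. The TK-/- tagged replicates were at 821, 952, 914 and 1246. Both groups covered much the same range, and replicate 4 of the TK-/- tagged group was second highest of all. For *Gsn* the log2 fold change was −0.12 with a 95% interval from −0.47 to 0.23 (FDR = 0.856). This value was −0.013 when control-tagged replicate 3 was left out and −0.25 when TK-/- tagged replicate 4 was.

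*Scx* (ENSMUSG00000034161, chromosome 15, 76457452 to 76459458, plus strand) encodes scleraxis, a basic helix-loop-helix factor of tendon that also drives collagen expression in cardiac fibroblasts. Its normalized CPM was 9.66, 8.78, 8.21 and 13.6 in control-tagged replicates 1 to 4 and 8.21, 9.14, 8.85 and 8.45 in the TK-/- tagged replicates. Control-tagged replicate 4 was the only library above 10, and the others were close together (10.1 ± 2.43 and 8.66 ± 0.416, SD, n = 4). *Scx* had a log2 fold change of −0.21 (SE 0.17, FDR = 0.732), and without that library it was −0.036. *Scx* was the one gene whose spread was far narrower in the TK-/- tagged group, with a coefficient of variation of 4.80% against 24.2%.

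*Meox1* (ENSMUSG00000001493, chromosome 11, 101877510 to 101894374, minus strand) encodes a homeobox factor that is switched on in activated cardiac fibroblasts. The control-tagged replicates 1 to 4 had 52.9, 71.5, 45.6 and 39.3 normalized CPM. The TK-/- tagged replicates had 47.9, 38.3, 26.5 and 44.5. All TK-/- tagged libraries were below the control-tagged mean of 52.3 and 2 of them below every control-tagged library. For *Meox1* the log2 fold change was −0.42 (SE 0.20, FDR = 0.583), with p = 0.200 in the exact permutation test. It was −0.23 without control-tagged replicate 2.

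*Fap* (ENSMUSG00000000392, chromosome 2, 62500943 to 62574075, minus strand) encodes fibroblast activation protein, a serine protease on the surface of activated fibroblasts. The control-tagged replicates 1 to 4 were at 7.26, 6.46, 6.19 and 7.04 normalized CPM. The TK-/- tagged replicates were at 5.04, 3.64, 3.95 and 5.74. No TK-/- tagged library reached the lowest control-tagged one, with means of 6.74 ± 0.498 and 4.59 ± 0.972 (SD, n = 4). The fitted level was 31.6% lower, at −0.55 on the log2 scale (SE 0.17, FDR = 0.464 with the quasi-likelihood test of edgeR), and the exact 2-sided permutation test gave its smallest value, p = 0.0286. Read counts were low, 41 to 97 per library. With total counts in place of TMM the groups overlapped.

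*Cthrc1* (ENSMUSG00000054196, chromosome 15, 39076932 to 39087121, plus strand) encodes a secreted protein that marks strongly activated, matrix-producing fibroblasts after cardiac injury. It was the most variable of the 10 genes. Read counts were 54, 31, 11 and 15 in control-tagged replicates 1 to 4 and 27, 9, 4 and 31 in the TK-/- tagged replicates. The exact Poisson 95% intervals of the highest and the lowest count were 40.6 to 70.5 and 1.09 to 10.2, which cover counting error only. In normalized CPM the libraries ran from 0.316 to 4.04, a 12.8-fold range, and the groups overlapped widely. The log2 fold change was −0.50 with a 95% interval from −1.79 to 0.80 (FDR = 0.837). It was 0.055 without control-tagged replicate 1 and −0.89 without TK-/- tagged replicate 4, so a difference between the groups was not detectable at this depth and spread.

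**Figure D2:**
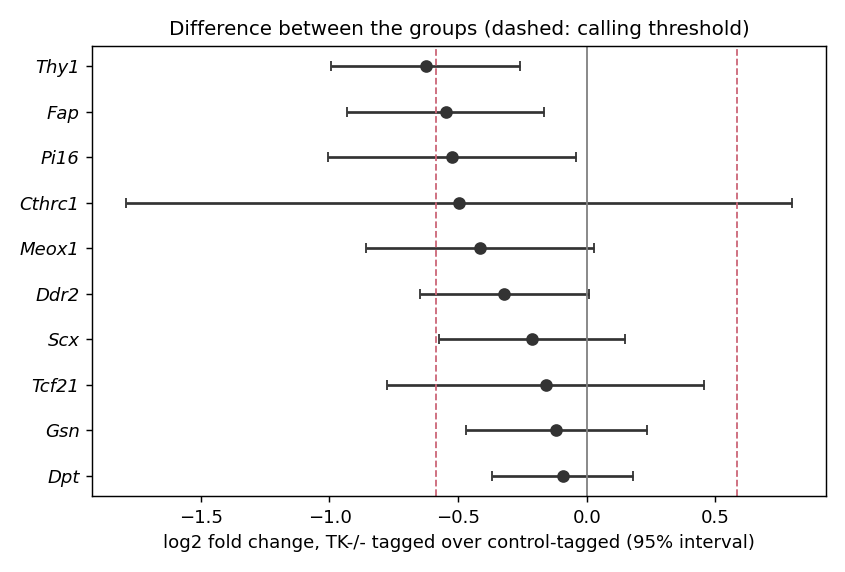
Log2 fold change (x axis) of each fibroblast gene, TK-/- tagged over control-tagged libraries, with its 95% interval from edgeR's quasi-likelihood test, 4 libraries per group. Dashed lines mark the 1.5-fold threshold in both directions. All 10 points lie below 0, the intervals of *Thy1*, *Fap* and *Pi16* do not reach 0, and that of *Cthrc1* spans −1.79 to 0.80.

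Per kilobase of exon, on the scale of normalized CPM, *Gsn* was the most abundant of the 10 genes with a mean of 325 over the 8 libraries, above 99.0% of all genes tested. *Dpt* followed at 52.5. *Pi16* at 22.3 and *Meox1* at 20.6 came next, and their ranges over the libraries overlapped. *Thy1* at 6.12 and *Scx* at 4.66 overlapped too, as did *Ddr2* at 2.82 with *Tcf21* at 2.39 and the latter with *Cthrc1*. *Cthrc1* at 1.10 and *Fap* at 1.00 were the lowest and overlapped as well, *Fap* standing above 19.8% of all genes tested. The ranges of *Gsn* and *Dpt*, of *Dpt* and *Pi16*, of *Meox1* and *Thy1* and of *Scx* and *Ddr2* did not touch. The transcription factors thus covered a wide span, *Meox1* lying well above *Scx* and *Tcf21* in level.

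The libraries of one group differed from each other across these genes. TK-/- tagged replicates 2 and 3 each held the lowest level of 4 of the 10 genes. On the log2 scale, with each gene centred on its own mean over all libraries, the mean over the 10 genes was −0.36 in replicate 2 and −0.59 in replicate 3 of that group. It was 0.02 in replicate 1 and 0.20 in replicate 4, beside 0.05 to 0.33 in the control-tagged libraries. Control-tagged replicate 2 was the highest library for 4 genes. Leaving out TK-/- tagged replicate 2 or 3, the median log2 fold change of the 10 genes was −0.28 or −0.25, and it was −0.25 without control-tagged replicate 2.

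**Figure D3:**
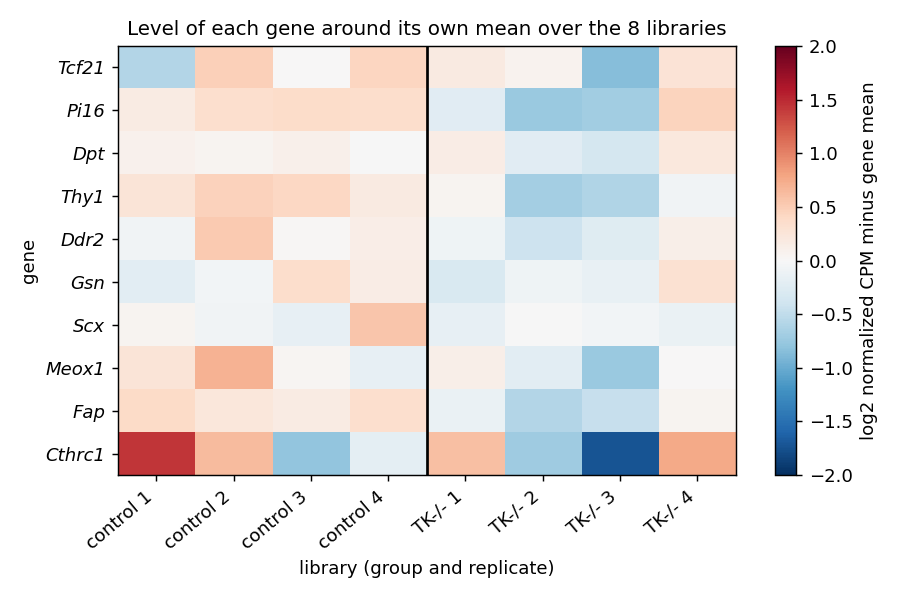
Level of each fibroblast gene (rows) in each library (columns) as log2 normalized CPM minus the mean of that gene over the 8 libraries, red above and blue below the mean. The columns of TK-/- tagged replicates 2 and 3 are mostly blue, that of replicate 4 is mostly pale red, and *Cthrc1* has the widest range, from −1.72 to 1.43.

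Levels over the libraries were compared between genes by the root mean square difference of these centred log2 values, over the 8 libraries. Of the 45 pairs among the 10 genes, *Fap* and *Thy1* had the lowest difference, at 0.18. *Fap* and *Pi16* followed at 0.21 and *Dpt* and *Ddr2* at 0.22. The measure is not scaled to the spread of a gene, so genes that vary little come out close. The root mean square of the centred values themselves was 0.34 for *Fap* and 0.41 for *Thy1*. It was 0.18 for *Dpt* and 0.26 for *Ddr2*, so the low difference of that pair does not show a shared pattern. Among all genes tested, the gene most like *Thy1* was *B3gnt9* (0.069) and that most like *Pi16* was *Tmem158* (0.11). The gene most like *Fap* was *Cspg4* (0.11), the gene of the proteoglycan NG2 of pericytes. The gene most like *Tcf21* was *Adamts5* (0.14), that of an aggrecan-cleaving protease. For *Meox1* it was *Pik3ap1* (0.094), for *Dpt* it was *Praf2* (0.043), for *Ddr2* it was *Myef2* (0.063), for *Gsn* it was *Hdac8* (0.074), for *Scx* it was *Ripply3* (0.088) and for *Cthrc1* it was *Slc13a4* (0.28). The mean profile of the 10 genes was most like those of *Sdc1* and *Fam129a* (both 0.066), *Timp2* (0.083), *Prcp* (0.088) and *Pvrl1* (0.089). *Sdc1* encodes syndecan-1 and *Timp2* an inhibitor of matrix metalloproteinases.

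Further genes of fibroblasts were read from lists that do not hold the 10 genes. Of 18 markers of resident fibroblasts, 16 were lower in the TK-/- tagged libraries, with a median log2 fold change of −0.31. None was called. At an unadjusted p under 0.05, 4 were lower, against 5.64% of all genes. In none were the groups apart, against 2.53% of all genes to the lower side. The lowest p was that of *Cd248*, which encodes endosialin, at 27.2 ± 7.54 and 14.8 ± 5.99 normalized CPM (SD, n = 4), or −0.88 on the log2 scale (FDR = 0.453). *Smoc2*, *Mfap5* and *Pcolce*, genes of matrix-associated proteins, had log2 fold changes of −0.32, −0.54 and −0.32 (FDR from 0.506 to 0.539).

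Of 19 genes of activated fibroblasts, 18 were tested, *Il11* having at most 3 reads in a library. In the TK-/- tagged libraries 16 of the 18 were lower, with a median log2 fold change of −0.42. None was called, and 2 were lower at an unadjusted p under 0.05, against 5.64% of all genes. *Ctgf*, the gene of a matricellular growth factor induced by TGF-β, was at 350 ± 91.0 and 181 ± 64.2 normalized CPM (SD, n = 4), or −0.95 on the log2 scale (FDR = 0.442). *Col8a1*, a short-chain collagen, was at −0.83 (FDR = 0.522), *Fn1*, the gene of fibronectin, at −0.53 (FDR = 0.588) and *Thbs4* at −0.64 (FDR = 0.639) on that scale. The spread was wide within both groups. The mean centred log2 level of this list was 0.58, 0.63, −0.06 and −0.14 in control-tagged replicates 1 to 4 and 0.32, −0.47, −1.37 and 0.52 in the TK-/- tagged replicates. *Cthrc1* stood above its own mean in the same 4 libraries as this list and below it in the other 4.

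Of 15 genes of the signaling that activates fibroblasts, 14 were tested and 13 of them were lower, by a median log2 fold change of −0.14. Again none was called. *Tgfb2* alone was lower at an unadjusted p under 0.05, against 5.64% of all genes. It was at 20.2 ± 5.28 and 13.6 ± 3.79 normalized CPM (SD, n = 4) with a log2 fold change of −0.57 (FDR = 0.508). The other TGF-β ligands *Tgfb3* and *Tgfb1* were at −0.28 and −0.20 (FDR = 0.559 for both), and *Mkl1*, a cofactor of serum response factor, at −0.22 (FDR = 0.588). Of 8 tendon genes, which share expression with *Scx* in tendon cells, 4 were tested and none was called. *Col12a1*, *Col14a1* and *Ecm2* were at −0.41, −0.31 and −0.23 and *Thbs2* at 0.08 on the log2 scale (FDR from 0.767 to 0.929).

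Markers of other cells of the heart were mostly lower as well. Of 9 mural cell markers (pericytes and smooth muscle), 7 were lower in the TK-/- tagged libraries. At an unadjusted p under 0.05, 5 were lower, against 5.64% of all genes. The groups did not overlap in 3, against 2.53% of all genes to the lower side: *Kcnj8*, *Cspg4* and *Pdgfrb*. Their log2 fold changes were −0.65, −0.50 and −0.54, that of *Notch3* was −0.50 (FDR from 0.442 to 0.453), and the median of the list was −0.48. Of the other mural cell markers, *Rgs5* was at −0.48 and *Abcc9* at −0.10 (FDR = 0.476 and 0.844). The smooth muscle genes *Myh11*, *Tagln* and *Cnn1* were at −0.02, 0.001 and 0.04 (FDR from 0.953 to 0.998). The summed level of the list was 1271 to 1733 normalized CPM in the control-tagged and 949 to 1296 in the TK-/- tagged libraries. All 8 leukocyte markers were lower, with a median of −0.32 and a summed level of 395 to 525 against 266 to 405, *Csf1r* at −0.49, *Itgam* at −0.58, *Lyz2* at −0.33 and *Cd68* at −0.31 (FDR from 0.464 to 0.588). Of 8 endothelial markers 7 were lower, with a median of −0.24 and a summed level of 1767 to 2232 against 1631 to 1764. At an unadjusted p under 0.05, 3 endothelial and 2 leukocyte markers were lower, against 5.64% of all genes. In none of these 2 lists' markers were the groups apart, against 2.53% of all genes to the lower side. *Cdh5*, *Tie1*, *Pecam1* and *Egfl7* were at −0.38, −0.40, −0.29 and −0.21 (FDR from 0.464 to 0.615). None of these markers was called, and the part of these cells in the values of *Thy1*, *Ddr2* or the other genes was not tested.

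Of 8 cardiomyocyte markers 7 were higher in the TK-/- tagged libraries, with a median log2 fold change of 0.18. *Pln* and *Tnni3* were at 0.32 and 0.36 and *Ryr2* and *Tnnt2* at 0.16 and 0.24 (FDR from 0.541 to 0.727). None was called. At an unadjusted p under 0.05, 2 were higher, *Pln* and *Tnni3*, against 449 of all 13542 genes tested. In 1, *Pln*, the groups did not overlap, against 333 of 13542 to the higher side. The mean level of these markers was lowest in control-tagged replicate 2, at −0.35 on the centred log2 scale, the library with the highest mean of the 10 fibroblast genes. It was highest in TK-/- tagged replicate 3, at 0.23, the library with their lowest mean. The cardiomyocyte markers and the fibroblast genes thus had their extremes in the same libraries at opposite ends, and the part of the former in the values of the latter was not tested. Other lists shared these extremes. Leukocyte markers were highest in control-tagged replicate 2 (0.43) and lowest in TK-/- tagged replicate 3 (−0.41). The latter library was also lowest for tendon (−0.93) and activating signaling genes (−0.16) and highest for Schwann cell markers (0.40). Of 11 epicardial genes 10 were tested, 7 were lower and none was called, with a median of −0.08. *Wt1*, the gene of a transcription factor of the epicardium, was at −0.07, *Tbx18* at 0.19, *Aldh1a2* at −0.38 and *Krt18* at −0.31 (FDR from 0.696 to 0.923). Their mean centred log2 level was highest in control-tagged replicate 2, at 0.95, and lowest in control-tagged replicate 3, at −0.73. Of 6 Schwann cell markers 5 were tested, with a median of 0.04 and none called, *Egfl8* being at −0.32, *Prx* at −0.25 and *Kcna1* at 0.20 (FDR from 0.785 to 0.884). Of 7 T cell markers 4 were tested, with a median of 0.13 and none called, *Cd4* at −0.27, *Cd8a* at 0.48, *Cd3e* at 0.43 and *Lck* at −0.16 (FDR from 0.800 to 0.887).

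**Figure D4:**
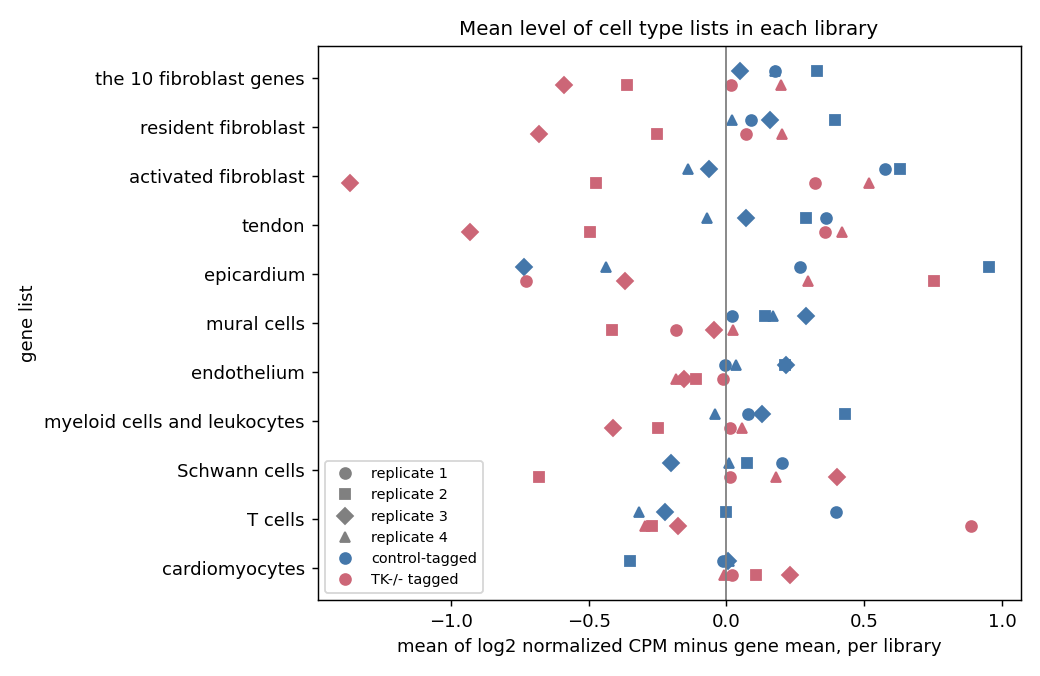
Mean of log2 normalized CPM minus gene mean (x axis) for the 10 fibroblast genes and for each gene list, 1 point per library, control-tagged in blue and TK-/- tagged in red, with symbols for the replicate number. TK-/- tagged replicate 3 is lowest for the fibroblast lists (−1.37 for the activated list), and also for tendon genes (−0.93) and leukocyte markers (−0.41). It is highest for cardiomyocyte markers (0.23) and Schwann cell markers (0.40).

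On a scale chosen after seeing the data, the log2 level of each gene was taken relative to the mean log2 level of the 18 resident fibroblast markers. That mean was 6.56 ± 0.162 in the control-tagged and 6.23 ± 0.393 in the TK-/- tagged libraries (SD, n = 4). It only describes a list that was chosen with earlier results of these data known. The difference between these means, −0.33, is taken from every gene alike, so the sign of a gene on the relative scale says only whether its own difference was larger or smaller than that of the markers. *Thy1* remained below in every TK-/- tagged library, by 0.32 on the log2 scale (−0.32), and *Dpt* was above in every one, by 0.22. The nearest libraries of the groups were close: *Thy1* was at −2.165 in TK-/- tagged replicate 3 and −2.164 in control-tagged replicate 2, and *Dpt* at 0.114 in TK-/- tagged replicate 4 and 0.0965 in control-tagged replicate 1. Both had the smallest value of the exact permutation test, p = 0.0286, which was 0.143 after Benjamini-Hochberg adjustment over the 10 genes. Neither passed the threshold of 0.1. No smaller p is possible with 4 libraries against 4, so the adjusted value depends on how many of the 10 genes reach it. *Pi16*, *Fap* and *Cthrc1* were at −0.28, −0.23 and −0.21 with overlapping groups, *Meox1* was at −0.08 and *Ddr2* at 0.015. *Tcf21*, *Gsn* and *Scx* were at 0.17, 0.21 and 0.14, with wide overlap.

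**Figure D5:**
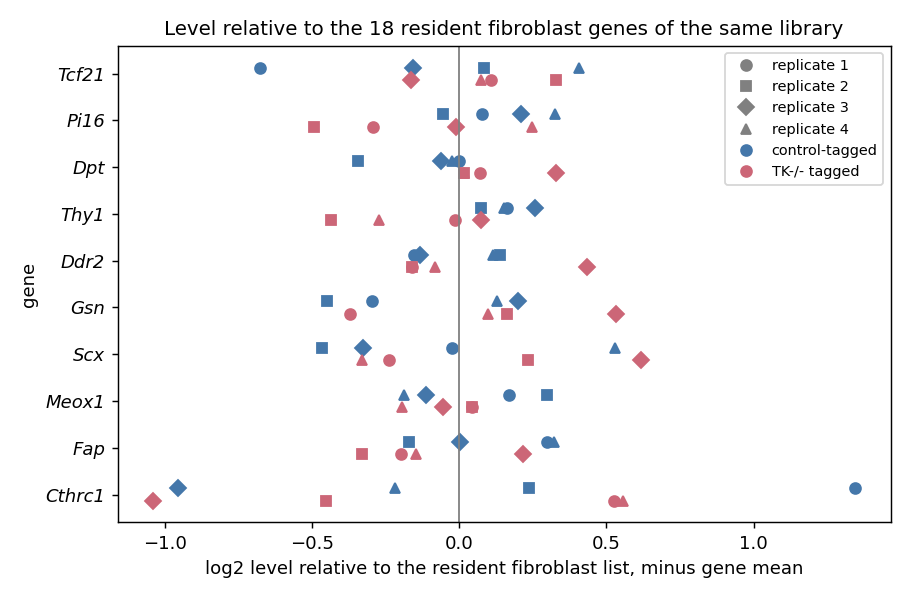
Log2 level of each fibroblast gene relative to the mean of 18 resident fibroblast markers of the same library, minus the mean of that gene over the 8 libraries (x axis), 1 point per library, control-tagged in blue and TK-/- tagged in red. The groups are apart, by a narrow margin, for *Thy1*, lower in the TK-/- tagged libraries by 0.32 (difference −0.32), and for *Dpt*, higher by 0.22.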

How the data were processed

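RNA of the LV was sequenced in 8 libraries, 4 per genotype tag. The methods describe poly-A selection and the labels depletion of ribosomal RNA. The authors trimmed reads with Trim Galore 0.4.4, aligned them to GRCm38 with STAR 2.5.4b and deposited whole-number counts per gene made with featureCounts, without normalization. Whether strand or reads with several alignments were counted is not given in the sources used here, so reads of antisense or similar genes may be included. Groups follow the library names, which the sample titles contradict.

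The filter on low counts asked for a CPM of 1 or more in 2 or more libraries. Counts were scaled by TMM and tested with glmQLFTest of edgeR 4.0.16 in R 4.3.3, without covariates, with FDR over all 13542 genes and the study's thresholds (FDR under 0.1, a change of at least 1.5-fold). The study used the likelihood ratio test, which was run as an alternative with DESeq2 1.42.0, RLE factors, total counts, other filters, the replicate block and each library left out. For log2 CPM the prior count was 2. Exact permutation over the 70 splits into 4 and 4 served for single values. The fits were tested on simulated data. Counts of libraries within a group differed by more than sampling noise, with chi-square divided by its degrees of freedom at 6.77 or more for every pair, so no library appears to be deposited more than once. This does not show that they come from separate animals. The 10 genes and the lists (resident and activated fibroblasts, activating signaling, tendon, epicardium, endothelium, mural cells, Schwann cells, leukocytes, T cells, adipocytes, cardiomyocytes) were chosen with earlier results of these data known. Named besides the 10 genes and the remaining mural cell markers were *Flt1*, the 4 genes of each list with the lowest unadjusted p, and the genes nearest in profile. The values of 1 gene named by this rule are not reported here. Exon lengths and coordinates are from the GENCODE annotation (release M21) and promoters from RefSeq. Figures and profiles were made in Python 3.11.15.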

Additional observations from a re-analysis of the deposited data

Results flagged for a closer look

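*Pi16* in control-tagged replicate 1 was at 152 normalized CPM, while the nearest of the other 3 control-tagged libraries was at 171. This gap was 0.840 of the whole range of the group, above Dixon's 95% critical value for 4 libraries. It was the only such library among the 20 groups of values examined, 10 genes in 2 groups, and chance gives about 1 in 20.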

How the results depend on the processing

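Over 15 alternatives, the direction of a single gene was kept in 148 of 150 values. Alternatives that kept all 8 libraries gave much the same fold changes, so that these values are not independent of each other. The exceptions were *Cthrc1* without control-tagged replicate 1 (log2 fold change 0.055) and *Tcf21* without TK-/- tagged replicate 3 (0.041), with ranges over the libraries left out of −0.89 to 0.055 and −0.35 to 0.041. The cause was not tested. All 10 genes were lower with TMM, RLE factors and total counts.

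None of the 10 genes was called except *Thy1* by the likelihood ratio test, 1 gene. Over all genes, 1 was called, against 53 by the likelihood ratio test, 32 by DESeq2, 23 without the filter on low counts, and 1 to 3 with a library left out. The groups did not overlap in 2 of the 10 genes, where 342 of 13542 genes separated to the lower side. With total counts it was 1 of the 10, beside 287 of 13542. With a library left out it was 2 to 4. Over all genes, the fewest then separated to the lower side without TK-/- tagged replicate 2, 436 of 13477. The most did so without control-tagged replicate 1, 786 of 13488. The 4 were *Thy1*, *Fap*, *Pi16* and *Ddr2* without TK-/- tagged replicate 4, beside 696 of 13483 genes. The median log2 fold change of the 10 genes lay between −0.45 and −0.25 with a library left out.

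Replicate numbers are shared between the groups by label only. The deviations of same-numbered libraries correlated at −0.03, 0.03, 0.34 and −0.06 over genes, and 2 of 8 libraries correlated best with their own number. With the replicate number as a block, 1 gene was called in all and 0 of the 10, with a median log2 fold change of −0.36.

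Relative to the resident fibroblast markers, a scale chosen after seeing the data, *Tcf21*, *Dpt*, *Scx*, *Gsn* and *Ddr2* were at 0.17, 0.22, 0.14, 0.21 and 0.015, which follows from the construction, since the difference of the markers, −0.33, is taken from every gene. Depth limits *Cthrc1* most, with 4 to 54 reads per library.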
